A study of Arabidopsis thaliana with 6 samples.

Results

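The expansins of Arabidopsis thaliana are a superfamily of 36 loci, and all 36 were found among the 37336 gene identifiers counted in root tips. Members were taken by locus: 26 alpha-expansins (EXPA1 to EXPA26), 6 beta-expansins (EXPB1 to EXPB6), 3 expansin-like A genes (EXLA1 to EXLA3) and 1 expansin-like B gene (EXLB1). Reads were counted in 3 libraries of the hsl2 mutant and 3 of the wild type, both in the Col-0 ecotype. Every library came from the outermost 0.5 mm of the primary root of seedlings aged 7 days, grown on vertical plates of 1% agar without sucrose in cycles of 16 h light and 8 h dark. HSL2 encodes a receptor kinase related to HAESA, and the series asks how its mutation bears on sloughing of the root cap. The labels name neither the hsl2 allele nor the number of roots pooled in a library.

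Expansins are secreted proteins that loosen plant cell walls without cutting their polymers, and they act best at acid pH. A mature expansin joins a domain related to glycoside hydrolases to another related to grass pollen allergens. Alpha-expansins are the classical agents of acid-induced wall extension, beta-expansins share the same fold, and no wall-loosening activity is established for the expansin-like groups. In roots, expansins are known from cell elongation, root hair growth and the emergence of lateral roots, and in the shoot from organ growth and the shedding of organs.

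Library depth ran from 15051468 to 20468890 counts, and levels are given as CPM, counts per 1000000 of the TMM-scaled library. At these depths 3 counts corresponded to between 0.148 and 0.213 CPM. HSL2 (AT5G65710) transcript was at 7.61, 9.76 and 9.81 CPM in hsl2, against 6.98, 8.61 and 7.22 CPM in wild type, so its level did not check the genotype. A pair of libraries stood apart. The hsl2 1 library had the highest summed level of 7 green tissue genes, 93.01 CPM against 24.9 to 40.5 CPM in the other 5 libraries. Over genes, its chi-square per degree of freedom was 36.7 to hsl2 2, 33.8 to hsl2 3 and 42.0 to 49.8 to the wild type libraries. Between hsl2 2 and hsl2 3 it was 6.17. The wild type 3 library lay closer to hsl2 2 and hsl2 3 (chi-square per degree of freedom 13.3 and 12.7 over genes) than to wild type 1 and wild type 2 (17.003 and 21.5).

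In the root tip, 20 of the 36 loci had enough counts to be tested: 16 of 26 EXPA, 2 of 6 EXPB, 2 of 3 EXLA and 0 of 1 EXLB. The other 16 did not pass the filter on low counts. Of these, 11 had 0 counts in all 6 libraries, which allows a level of at most 0.148 to 0.213 CPM in a library. They were EXPA2, known from seed germination, EXPA19, which the TAIR10.1 annotation calls a pseudogene, EXPA21 to EXPA26, EXPB2, EXPB4 and EXPB6. The limit is less certain for EXPA21: a gene on the opposite strand covers 964 bases of it, and reads there could have been lost if strand was not used in counting. It is also less certain for EXPA23 and EXPA25, which share an exact run of 248 bases, and for EXPA22 and EXPA26, which share 208. Reads in these runs could have been lost if reads matching more than 1 locus were not counted. The remaining 5 had between 0 and 9 counts in a library: EXPA5, known from leaf growth under brassinosteroid, EXPA16, EXPB5, EXLA3 and EXLB1.

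Loci without counts lay side by side in the genome. EXPA21, EXPA22, EXPA23, EXPA26, EXPA25 and EXPA24 form a tandem array on chromosome 5 (chr5:15726243-15740605 in TAIR10.1), and all 6 had 0 counts in all 6 libraries. EXPB2 and EXPB6 are neighbours on chromosome 1 (chr1:24427266-24430670) and had 0 counts as well. In the third group, EXLA3 and EXLA1 on chromosome 3 (chr3:16892702-16897308), the counts differed between the neighbours: EXLA3 had 7, 0 and 1 counts in hsl2 and 8, 0 and 3 in wild type, while EXLA1 had 177, 172 and 100 counts in hsl2 and 188, 191 and 135 in wild type. The EXLA1 and EXLA3 transcripts share an exact run of 57 bases. Longer shared runs were found only between members of the array on chromosome 5, up to 248 bases for EXPA23 and EXPA25. Among the 20 genes tested the longest shared run was 33 bases, between EXPA10 and EXPA15.

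Levels of different genes were compared as CPM per kb of the longest annotated transcript. EXPA9 stood at the top, at 156.2, 167.1 and 151.8 CPM per kb in hsl2 and 152.8, 178.7 and 163.8 CPM per kb in wild type. Its lowest library lay above the highest library of every other member, and its mean over the 6 libraries was 2.67 times that of EXPA14, the next gene. EXPA14, a target of the lateral root regulator LBD18, averaged 59.5 ± 9.55 CPM per kb in hsl2 and 61.6 ± 8.23 CPM per kb in wild type (SD, n = 3 each). EXPA11 averaged 55.4 ± 5.07 CPM per kb in hsl2 and 44.7 ± 9.99 CPM per kb in wild type. EXPA15 followed with 46.2 ± 22.7 CPM per kb in hsl2 and 44.8 ± 8.81 CPM per kb in wild type. EXPA13, the fifth, had 21.8 ± 1.26 CPM per kb in hsl2 and 19.2 ± 0.818 CPM per kb in wild type. From EXPA14 downward, the library values of each gene tested overlapped those of its neighbour in the order. The EXPB and EXLA genes lay outside the 5 highest: EXPB1 ranked 6, EXLA2 ranked 9, EXLA1 ranked 10 and EXPB3 ranked 13. The 3 lowest genes tested were EXPA3, EXPA8 and EXPA18, with means over the 6 libraries of 1.16, 1.13 and 1.12 CPM per kb.

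**Figure D1:**
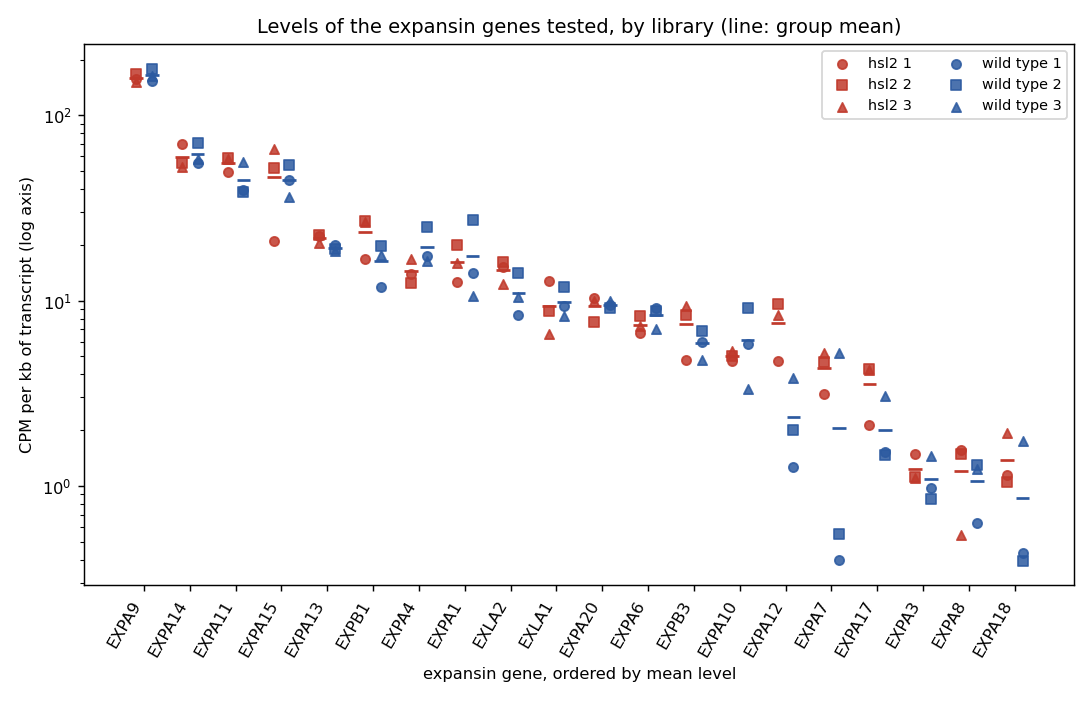
Level of each of the 20 expansin genes tested, as CPM per kb of transcript on a log axis, in the 3 hsl2 libraries (red) and the 3 wild type libraries (blue), with a line at each group mean. EXPA9 stands above all others in every library, and EXPA7 and EXPA18 show wild type 3 far above wild type 1 and wild type 2.

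The summed level of all 36 loci overlapped between genotypes, at 598, 683 and 669 CPM in hsl2 and 574, 700.4 and 608 CPM in wild type. EXPA genes made up most of it, with 574.9 ± 35.8 CPM in hsl2 and 569 ± 54.6 CPM in wild type (SD, n = 3 each). The EXPB sum was 34.1, 56.2 and 57.2 CPM in hsl2, against 28.8, 42.3 and 35.6 CPM in wild type, with hsl2 1 below wild type 2 and 3. The EXLA sum was 30.2, 26.9 and 20.4 CPM in hsl2 and 19.1, 27.6 and 20.2 CPM in wild type, so every subfamily sum overlapped between the genotypes.

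In the comparison of hsl2 with wild type, 0 of the 20 expansin genes passed an adjusted p of 0.05 with edgeR, as did 0% of all 17989 genes tested. The median log2 fold change over the 20 was 0.18, with 12 higher and 8 lower in hsl2, beside a median of 0.01 over all genes. Without wild type 2, the library highest for several members, 17 were higher and 3 lower, and without wild type 1 the median was 0.056. At an unadjusted p under 0.05 with edgeR, 3 members were higher (EXPA12, EXPA17 and EXPB1) and 1 was lower (EXPA4), beside 7.53% of all genes higher and 6.01% lower (13.5% in both directions). Libraries of the 2 genotypes did not overlap for 2 members, EXPA12 and EXPA13, both higher in hsl2, beside 20.7% of all genes in both directions and 11.3% with hsl2 higher. The superfamily was not tested against other genes. DESeq2, run as an alternative on the same counts, called 1 member, EXPA12, higher in hsl2, beside 0.917% of all genes called higher and 0.706% lower (1.62% in all). With limma-voom, 0 members and 0% of all genes were called. At an unadjusted p under 0.05 with limma-voom, EXPA7, EXPA12, EXPA17 and EXPB1 were higher and EXPA4 was lower, beside 13.7% of all genes in both directions.

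**Figure D2:**
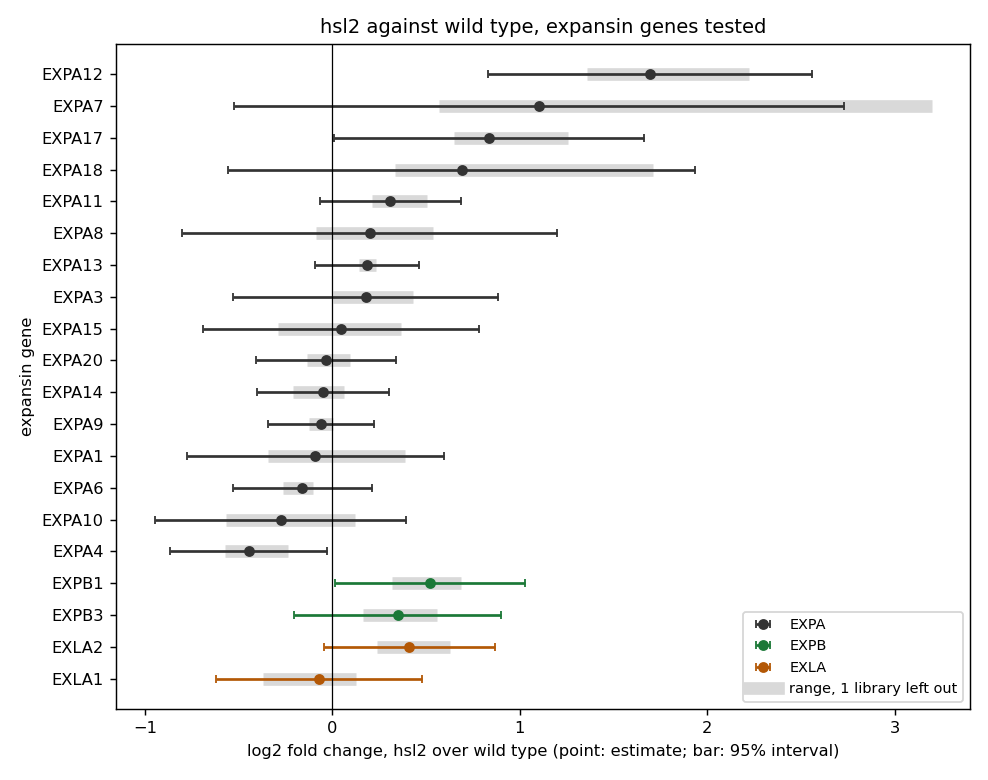
Log2 fold change of hsl2 over wild type for the 20 expansin genes tested (points, edgeR), with the 95% interval (bars) and the range of estimates when 1 library at a time was left out (grey). EXPA12 has the highest estimate at 1.69, and the grey range of EXPA7 reaches 3.20, its value without wild type 3.

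EXPA12 (AT3G15370) had the highest log2 fold change of the 20 in the edgeR fit of all 6 libraries. With limma-voom EXPA7 was above it (2.06 for EXPA7 and 1.82 for EXPA12), as it was without wild type 3 (3.20 for EXPA7 and 2.22 for EXPA12), and without hsl2 1 and wild type 3 (3.38 for EXPA7 and 2.47 for EXPA12). EXPA12 was at 5.34, 10.8 and 9.42 CPM in hsl2, against 1.43, 2.28 and 4.31 CPM in wild type, resting on 75, 214 and 144 counts in hsl2 and 29, 37 and 71 in wild type. Every hsl2 library was above every wild type library, with hsl2 1 lowest in its group and wild type 3 highest in its own. Means were 8.53 ± 2.85 CPM in hsl2 and 2.67 ± 1.48 CPM in wild type (SD, n = 3 each). The log2 fold change was 1.69 (SE 0.39, 95% interval 0.83 to 2.56), with an adjusted p = 0.179 by edgeR, 0.159 by limma-voom and 0.00361 by DESeq2. With no filter on low counts EXPA12 also passed (edgeR adjusted p = 0.0376), as the 1 expansin called beside 0.455% of all genes, 0.203% higher. Leaving out 1 library at a time gave log2 fold changes of 1.36 to 2.22 (edgeR adjusted p = 0.0532 to 0.663). Over all 14 alternatives its direction held, while the adjusted p ran from 0.00124, without hsl2 1 and wild type 3, to 0.663.

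EXPA17 (AT4G01630), an expansin of lateral root emergence and, like EXPA14, a target of LBD18, was at 2.35, 4.70 and 4.65 CPM in hsl2 and 1.67, 1.60 and 3.34 CPM in wild type. The hsl2 1 library lay below wild type 3, so the groups overlapped, and hsl2 2 and 3 stood above every wild type library. The log2 fold change was 0.84 (SE 0.37, adjusted p = 0.366, edgeR), and it ran from 0.65 to 1.26 with 1 library left out, highest without wild type 3.

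EXPB1 (AT2G20750), the beta-expansin with the highest level, was at 25.5, 41.3 and 40.4 CPM in hsl2 and 18.0, 29.97 and 27.0 CPM in wild type. The hsl2 1 library again lay inside the wild type range, while hsl2 2 and 3 stood above it. The log2 fold change was 0.52 (SE 0.23, adjusted p = 0.363, edgeR). With 1 library left out it ran from 0.32, without wild type 1, to 0.69, without hsl2 1.

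EXPA4 (AT2G39700) was the 1 member lower in hsl2 at an unadjusted p under 0.05, at 20.8, 18.7 and 25.1 CPM in hsl2 and 26.3, 37.2 and 24.5 CPM in wild type. The hsl2 3 library lay just above wild type 3, and wild type 2 was highest. The log2 fold change was -0.45 (SE 0.19, adjusted p = 0.355, edgeR). With 1 library left out it ran from -0.57, without hsl2 3, to -0.24, without wild type 2.

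**Figure D3:**
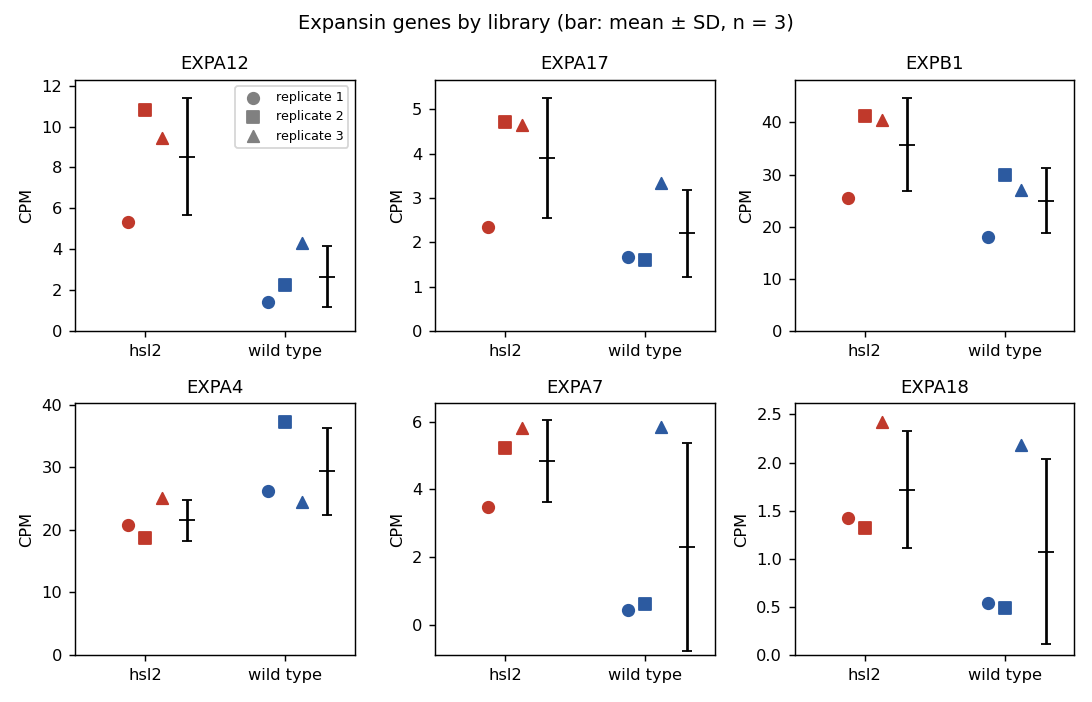
CPM of 6 expansin genes in each library of hsl2 (red, left) and wild type (blue, right), with the mean and SD of each group (n = 3 each). For EXPA12 all hsl2 libraries lie above all wild type libraries, while for EXPA7 and EXPA18 wild type 3 lies at or among the hsl2 libraries.

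EXPA7 (AT1G12560) and EXPA18 (AT1G62980) are the expansins of root hair cells, where a promoter sequence called the root hair element is known to drive them. The 250 bases before the annotated gene start were read from the TAIR10.1 assembly with its RefSeq annotation, to show that element beside the library values. The build behind the counts was not stated. Lower case is the window in the 5′ to 3′ direction of the gene, and capitals mark the root hair element where it was found on either strand. EXPA7 lies on the plus strand, with its window at chr1:4276255-4276504, and so does EXPA18, at chr1:23331313-23331562. EXPA12, also on the plus strand (chr3:5190304-5190553), is shown as the member with the highest log2 fold change in the fit of all 6 libraries.
EXPA7: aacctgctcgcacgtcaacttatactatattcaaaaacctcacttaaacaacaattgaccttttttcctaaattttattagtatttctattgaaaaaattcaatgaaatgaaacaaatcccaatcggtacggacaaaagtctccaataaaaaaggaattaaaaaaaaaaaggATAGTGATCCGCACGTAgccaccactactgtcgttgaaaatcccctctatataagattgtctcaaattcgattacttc
EXPA18: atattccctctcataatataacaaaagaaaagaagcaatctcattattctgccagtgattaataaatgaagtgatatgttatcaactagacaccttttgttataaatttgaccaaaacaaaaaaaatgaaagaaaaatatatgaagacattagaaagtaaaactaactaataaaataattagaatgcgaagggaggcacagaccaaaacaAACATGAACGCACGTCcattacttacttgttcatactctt
EXPA12: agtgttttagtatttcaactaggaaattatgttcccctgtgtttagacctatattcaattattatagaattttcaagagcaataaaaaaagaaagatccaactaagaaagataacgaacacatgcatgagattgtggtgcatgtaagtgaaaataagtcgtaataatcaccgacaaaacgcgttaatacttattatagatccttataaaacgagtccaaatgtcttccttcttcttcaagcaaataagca
The element stood 78 to 62 bases before the start of EXPA7 (ATAGTGATCCGCACGTA) and 40 to 25 bases before that of EXPA18 (AACATGAACGCACGTC). These were the 2 matches among the 35 expansin windows read, all but that of the pseudogene, while 0.754% of 27443 protein-coding promoters held one. The element is already known to drive these 2 genes, so their matches were fixed in advance. No enrichment is read from that share. The window of EXPA12 held 0. Another known sequence, TGTCTC, the core of an auxin response element, was searched on both strands and stood in 4 of the 35 expansin windows (EXPA5, EXPA6, EXPA7 and EXPA10), beside 10.9% of all promoters. A match is a description of the letters and not a test of binding.

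In both hair expansins the wild type libraries were split. EXPA7 was at 3.49, 5.21 and 5.82 CPM in hsl2 and at 0.443, 0.615 and 5.83 CPM in wild type, so that wild type 3 lay at the top of the hsl2 range and wild type 1 and 2 far below it. EXPA7 rested on 49, 103 and 89 counts in hsl2 and on 9, 10 and 96 in wild type. Its log2 fold change was 1.10 (SE 0.73, adjusted p = 0.514, edgeR). EXPA18 was at 1.42, 1.31 and 2.42 CPM in hsl2 and 0.541, 0.492 and 2.18 CPM in wild type, with the same split, on 8 to 37 counts per library. Its log2 fold change was 0.69 (SE 0.56, adjusted p = 0.585, edgeR). Without wild type 3 the log2 fold change was 3.20 for EXPA7 (adjusted p = 0.0265, edgeR) and 1.71 for EXPA18 (adjusted p = 0.150, edgeR). EXPA7 was then the 1 expansin called, beside 0.302% of all genes called, 0.231% higher. Wild type 3 is the control library most like hsl2, so leaving it out itself favours calls. Leaving out wild type 1 instead gave 0.57 for EXPA7 and 0.33 for EXPA18.

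With hsl2 1 and wild type 3 both left out, 6 of the 20 members passed with edgeR, all higher in hsl2. In the same fit 4.48% of all genes were called higher and 2.72% lower (7.2% in all), against 0 genes with all 6 libraries. Both libraries were chosen for removal from these data. Wild type 3 was the control nearest to hsl2 2 and hsl2 3, and hsl2 1 lay far from the rest of its own group. The removal of both itself favours calls, and these 6 are no support for a difference. Their log2 fold changes in that fit were 3.38 for EXPA7, 2.47 for EXPA12, 1.81 for EXPA18, 1.51 for EXPA17, 0.77 for EXPB1 and 0.58 for EXPA11.

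Of the remaining EXPA genes, EXPA13 was the 1 whose groups did not overlap. EXPA11 (AT1G20190) was at 65.1, 77.0 and 76.3 CPM in hsl2 and 51.9, 50.6 and 73.98 CPM in wild type, a log2 fold change of 0.31 (95% interval -0.07 to 0.68). Wild type 3 again lay with the hsl2 libraries, and the log2 fold change was 0.51 without it and 0.21 without wild type 1 or wild type 2. EXPA13 (AT3G03220) was at 32.2, 32.7 and 29.3 CPM in hsl2 and 28.9, 27.4 and 26.6 CPM in wild type, without overlap. The difference was small, with a log2 fold change of 0.18 (95% interval -0.09 to 0.46, adjusted p = 0.523, edgeR).

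EXPA9 (AT5G02260), the gene with the highest level, was at 212.6, 227 and 206.6 CPM in hsl2 and 208, 243 and 223 CPM in wild type. Its log2 fold change of -0.06 had a 95% interval of -0.34 to 0.22, so a difference within those bounds remains possible. EXPA14 (AT5G56320) was at 107.5, 84.4 and 80.6 CPM in hsl2 and 84.6, 108 and 89.2 CPM in wild type, a log2 fold change of -0.05 (95% interval -0.40 to 0.30). In both genes the highest library was wild type 2 and the groups overlapped. EXPA15 (AT2G03090) was at 30.2, 74.7 and 93.8 CPM in hsl2 and 64.1, 77.0 and 51.8 CPM in wild type. The hsl2 1 library was the lowest and hsl2 3 the highest, with a log2 fold change of 0.04 (95% interval -0.69 to 0.78). It was 0.36 without hsl2 1 and -0.089 without wild type 3.

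EXPA1 (AT1G69530), known as a target of cytokinin signalling where root cells leave the division zone, was at 18.4, 29.1 and 23.2 CPM in hsl2 and 20.6, 39.6 and 15.5 CPM in wild type. The wild type libraries spanned the hsl2 range, and the log2 fold change was -0.09 (95% interval -0.78 to 0.60). EXPA10 (AT1G26770), known from leaf growth and from the shedding of pedicels, was at 7.26, 7.68 and 8.24 CPM in hsl2 and 8.999, 13.97 and 5.16 CPM in wild type. Here too the hsl2 libraries lay inside the wild type range, with a log2 fold change of -0.28 (95% interval -0.95 to 0.39). Wild type 2 was the highest library for EXPA1, EXPA4, EXPA9, EXPA10 and EXPA14.

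EXPA6 (AT2G28950) was at 10.6, 13.1 and 11.6 CPM in hsl2 and 14.5, 13.97 and 11.2 CPM in wild type (log2 fold change -0.16, 95% interval -0.53 to 0.21). EXPA20 (AT4G38210) was at 11.7, 8.80 and 11.4 CPM in hsl2 and 10.8, 10.4 and 11.4 CPM in wild type (log2 fold change -0.03, 95% interval -0.41 to 0.34). The annotation places a long noncoding RNA on the opposite strand over 1061 bases of EXPA20, and whether the counting used strand was not stated, so its reads are less certain. EXPA3 (AT2G37640) was at 2.49, 1.87 and 1.83 CPM in hsl2 and 1.62, 1.42 and 2.43 CPM in wild type (log2 fold change 0.18, 95% interval -0.53 to 0.88). EXPA8 (AT2G40610) was at 2.06, 1.97 and 0.720 CPM in hsl2 and 0.836, 1.72 and 1.64 CPM in wild type (log2 fold change 0.20, 95% interval -0.80 to 1.20). In all 4 of these genes the groups overlapped, and EXPA3 and EXPA8 rested on 11 to 40 counts per library.

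Outside the EXPA group, EXPB3 (AT4G28250) was at 8.54, 14.9 and 16.7 CPM in hsl2 and 10.7, 12.4 and 8.56 CPM in wild type, with hsl2 1 lowest and hsl2 2 and 3 highest (log2 fold change 0.35, 95% interval -0.20 to 0.90). Its log2 fold change was 0.56 without hsl2 1, 0.22 without wild type 3 and 0.46 without both. EXLA2 (AT4G38400), known for a part in the response to the fungus Botrytis, was at 17.2, 18.2 and 13.8 CPM in hsl2 and 9.44, 15.8 and 11.8 CPM in wild type. Only wild type 2 lay within the hsl2 range, with a log2 fold change of 0.41 (95% interval -0.05 to 0.87, adjusted p = 0.408, edgeR). EXLA1 (AT3G45970) was at 12.6, 8.70 and 6.54 CPM in hsl2 and 9.24, 11.8 and 8.19 CPM in wild type, with overlap (log2 fold change -0.07, 95% interval -0.62 to 0.48). EXLB1 (AT4G17030) had 3, 9 and 4 counts in hsl2 and 7, 2 and 3 in wild type and was not tested.

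Markers of cell types moved with some of these genes. Of 10 root hair genes 9 were tested, 8 higher and 1 lower in hsl2 (7 higher without hsl2 1), with a median log2 fold change of 1.04. With edgeR 0 passed an adjusted p of 0.05. At an unadjusted p under 0.05, 4 were higher and 0 lower, beside 7.53% of all genes higher and 6.01% lower. Their summed level was 171 to 264.5 CPM in hsl2 and 184 to 229.9 CPM in wild type, and 0 of the 10 were at 0 counts throughout. The 10 did not share 1 pattern. CSLD3, a cellulose synthase-like gene of growing hairs, was at 85.5, 127 and 136 CPM in hsl2 and 133, 142.5 and 131 CPM in wild type (log2 fold change -0.22). RHD6, an early regulator of hair fate, was at 31.95, 24.9 and 26.8 CPM in hsl2 and 24.4, 26.03 and 26.6 CPM in wild type (log2 fold change 0.12). Without CSLD3 and RHD6, left out after their values were seen, the hair sum was 53.7, 98.8 and 102 CPM in hsl2. In wild type it was 26.6, 44.9 and 72.6 CPM, with overlap. RSL4, a later regulator of hair growth, named after its values were seen, was at 2.92, 8.49 and 8.05 CPM in hsl2 and 1.23, 1.91 and 5.89 CPM in wild type. Like EXPA7, EXPA12 and EXPA18, and unlike CSLD3 and RHD6, it was low in wild type 1 and 2 and higher in wild type 3. The 6 xylem vessel genes, 5 higher and 1 lower, summed to 14.2 to 35.9 CPM in hsl2 and 13.1 to 21.4 CPM in wild type. For this sum hsl2 1 was lowest in its group, as for EXPB1 and EXPA17. That library was also lowest in its group for RSL4, EXPA1, EXPA6, EXPA7, EXPA10, EXPA11, EXPA12, EXPA15 and EXPB3. It was highest in its group for EXPA3, EXPA8, EXPA14, EXPA20 and EXLA1. In a whole root tip, fewer cells of a type and less RNA per cell cannot be told apart, and the part of these cell types in the expansin values was not tested.

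Of the root cap genes, 8 of 8 had lower estimates in hsl2, with sums of 171, 208 and 196 CPM in hsl2 against 302, 361 and 213 CPM in wild type. Of 7 root cap cell death genes, 7 had lower estimates, with sums of 49.2, 47.4 and 30.7 CPM in hsl2 against 77.9, 111 and 67.9 CPM in wild type. For EXPA4, lower in hsl2 as well, wild type 2 was the highest library, as it was for both of these sums. This was not particular to EXPA4, since wild type 2 was also highest for EXPA1, EXPA9, EXPA10 and EXPA14. The 6 genes of dividing cells summed to 256 to 291 CPM in hsl2 and 272 to 359 CPM in wild type. The 5 endodermis genes were low in both, at 5.11 to 10.6 CPM in hsl2 and 3.81 to 9.10 CPM in wild type.

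**Figure D4:**
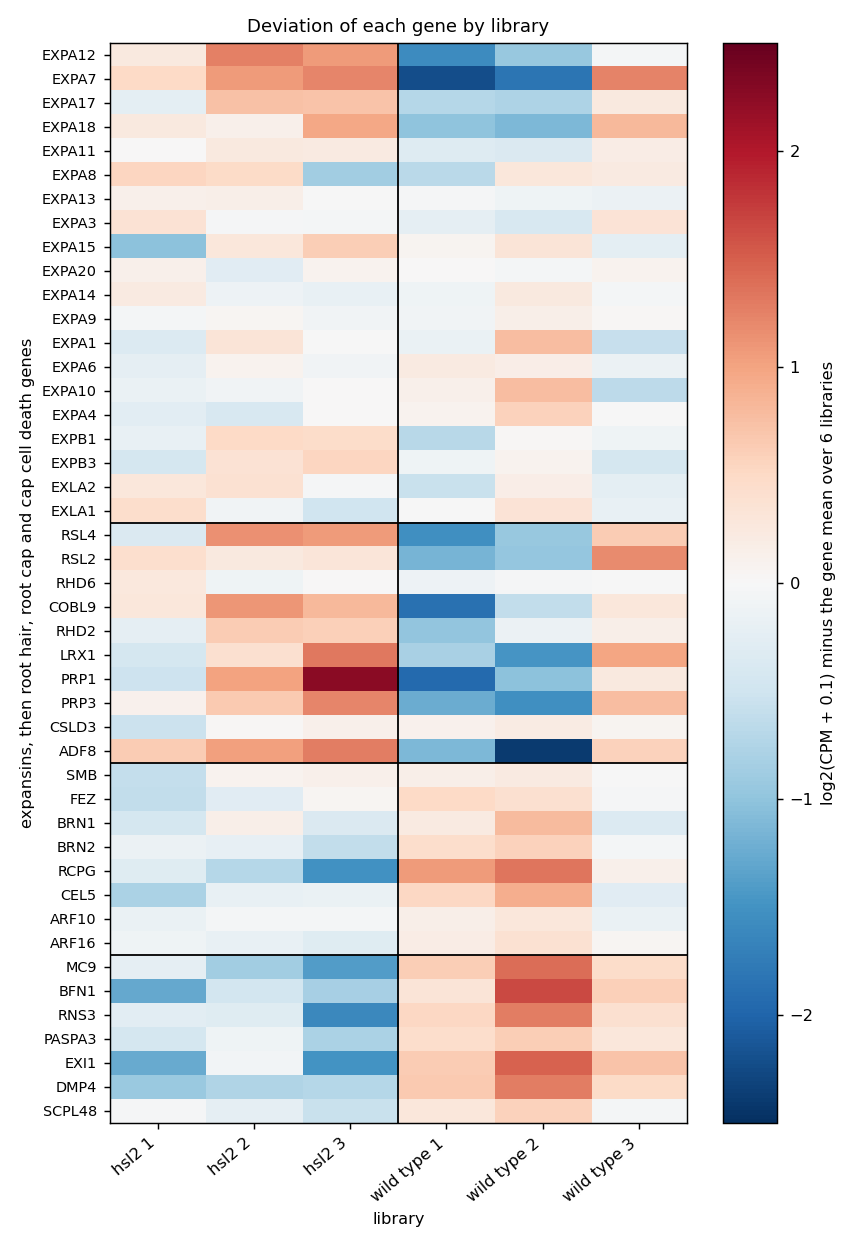
Deviation of log2(CPM + 0.1) from each gene's mean over the 6 libraries, for the 20 expansins tested and, below the lines, 10 root hair, 8 root cap and 7 root cap cell death genes. EXPA7 and EXPA18 share the low values of wild type 1 and 2 and the high value of wild type 3 with root hair genes such as RSL4 and PRP3. These examples were named after their values were seen. CSLD3 and RHD6 of the same list do not show this split, and RHD2 and COBL9 rise in steps from wild type 1 to wild type 3.

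Expansins act in walls acidified by plasma membrane proton pumps. Clade D protein phosphatases of type 2C turn these pumps down, and SAUR proteins made in response to auxin inhibit the phosphatases. Of the 11 pump genes AHA1 to AHA11, 9 were tested and 9 had lower estimates in hsl2, median log2 fold change -0.25, with 0 past an adjusted p of 0.05 and 1 lower at an unadjusted p under 0.05 (edgeR), beside 6.01% of all genes lower and 13.5% in both directions. Without hsl2 1, or without wild type 3, 6 of the 9 were lower and 3 higher. AHA2, the pump with the highest level, was at 481.6, 536 and 547 CPM in hsl2 and 431.5, 594 and 553 CPM in wild type, with overlap (log2 fold change -0.01, SE 0.15). AHA1, the other main pump of the root, was at 358, 414 and 405.5 CPM in hsl2 and 448, 483 and 473 CPM in wild type, without overlap (log2 fold change -0.25, SE 0.13, adjusted p = 0.409, edgeR). AHA4 was at 3.70, 3.84 and 5.43 CPM in hsl2 and 6.69, 5.97 and 5.77 CPM in wild type, again without overlap (log2 fold change -0.51, SE 0.22, adjusted p = 0.357, edgeR). Non-overlap with hsl2 lower held for these 2 of the 9 pumps, beside 9.44% of all genes.

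Of the 9 phosphatases tested, 6 were higher and 3 lower in hsl2, median log2 fold change 0.00, with 0 past the threshold. Under RLE or upper-quartile scaling 4 were higher and 5 lower. AT3G17090, among the highest by level, was at 92.8, 102.7 and 105.8 CPM in hsl2 and 92.9, 99.9 and 108 CPM in wild type, with overlap (log2 fold change 0.00, SE 0.13). AT5G66080 was the 1 of the 9 higher at an unadjusted p under 0.05, beside 7.53% of all genes higher, at 13.9, 15.9 and 15.7 CPM in hsl2 and 9.49, 12.4 and 11.3 CPM in wild type, without overlap (log2 fold change 0.46, SE 0.16, adjusted p = 0.313, edgeR). AT5G06750 did not overlap in the other direction, at 24.7, 22.2 and 24.7 CPM in hsl2 and 25.5, 28.7 and 24.7 CPM in wild type, where hsl2 1 and wild type 3 nearly touched (log2 fold change -0.14, SE 0.13). Libraries thus did not overlap for 1 phosphatase with hsl2 higher and 1 with hsl2 lower, beside 11.3% and 9.44% of all genes.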

How the data were processed

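RNA was sequenced from 6 root tip samples, 3 of hsl2 and 3 of wild type, grouped by their titles. The authors deposited raw counts of reads per gene, 1 file per sample and not normalized. Trimmomatic 0.33, STAR 2.5.1b and featureCounts are named in the submitters' processing notes. Neither the build and gene models behind the counts nor the use of strand in counting is given in the labels. Of 37336 identifiers, 0 lacked the form of an Arabidopsis locus name and 37051 matched TAIR10.1, which served for transcript lengths, overlaps and promoter windows. In R 4.3.3, edgeR 4.0.16 (filterByExpr, TMM, quasi-likelihood F-test, genotype as the only term) was fitted to all 6 libraries, leaving 17989 genes, 20 of the 36 expansins among them. Adjusted p-values are Benjamini-Hochberg values over all genes tested, with a threshold of 0.05. A positive log2 fold change means higher in hsl2, and SE is the standard error, taken from the F statistic. Floors cover counting error only. No label says that the samples were grown apart, so their spread, and with it every p-value, may be only technical.

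Alternatives were RLE and upper-quartile scaling, no filter, a filter of 1 CPM in 3 libraries, DESeq2 1.42.0, limma-voom (limma 3.58.1), the replicate number as a block, each library left out, and hsl2 1 with wild type 3 left out. By rule, every expansin tested was named, and those with an unadjusted p under 0.05, or an adjusted p under 0.05 with DESeq2, and the 5 highest by level were given by library, as were pumps and phosphatases with an unadjusted p under 0.05 or of highest level. The promoters of EXPA7, EXPA18 and EXPA12, the values by library of other expansins, AHA1, AT5G06750, and the single root hair genes were added after their values were seen. Members and lists were chosen with earlier results of these data known. No libraries were duplicates, with a chi-square per degree of freedom of at least 6.17.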

Additional observations from a re-analysis of the deposited data

How the results depend on the processing

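The count of genes called moved most. Against 0 of all genes and 0 expansins, the counts were 110 and 1 without the filter, 292 and 1 with DESeq2, 52 (0.289% of genes) and 1 with the replicate block, and 1311 and 6 without hsl2 1 and wild type 3. Leaving out 1 library gave 0 to 55 genes and 0 to 1 expansins. Scaling by RLE or upper quartile, the filter of 1 CPM and limma-voom also gave 0 and 0, and 0 pumps or phosphatases were called in any of the 14 alternatives. EXPA12 was the expansin called without the filter (log2 fold change 1.68), with DESeq2, and with the block (1.73, edgeR adjusted p = 0.0328). No label says that equal replicate numbers pair libraries, so the block is not taken as a paired test. Deviations of same-numbered libraries correlated at 0.16, 0.09 and -0.01, against -0.22 to 0.07 for libraries of different number. With 3 libraries per group these values do not settle whether the libraries were paired. Over the 20 expansins tested with all 6 libraries, the median of 0.18 ran from 0.056 (without wild type 1) to 0.20 when 1 library was left out, and from 0.17 to 0.20 otherwise. Without the filter 25 expansins were tested, 13 higher and 12 lower, with a median of 0.037. Some estimates changed sign, the largest of them that of EXPA10, at -0.28 in the edgeR fit of all 6 libraries. With limma-voom EXPA1 was 0.0068 and EXPA15 -0.087, and with the block EXPA15 was -0.080. With 1 library left out, EXPA1 ran from -0.34 to 0.39, EXPA8 from -0.089 to 0.54, EXPA9 from -0.12 to 0.00050, EXPA10 from -0.57 to 0.12, EXPA14 from -0.21 to 0.063, EXPA15 from -0.29 to 0.36, EXPA20 from -0.14 to 0.091 and EXLA1 from -0.37 to 0.12. The cause was not tested. Depth limits the genes near 1 CPM (EXPA3, EXPA8, EXPA18), and EXPA7 in wild type 1 and wild type 2.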
